A study of Mus musculus with 9 samples.

Results

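The CC chemokines of osteoblast cultures were examined as 10 genes, Ccl2, Ccl7, Ccl8, Ccl12, Ccl11, Ccl3, Ccl4, Ccl5, Ccl20 and Ccl9, taken by their symbols from the 40213 gene symbols counted in each library. The cells were primary calvarial pre-osteoblasts, the bone-forming precursors of the skull vault, isolated from WT pups 3 days of age (ICR mice, per the study's reporting summary). The 9 libraries fell into 3 groups of 3. The tested groups were Ad-Hif2a and Ad-Hif1a, infected with adenovirus carrying Hif2a (listed by its gene symbol Epas1) or Hif1a, and the control was Ad-C, infected with a control adenovirus. All cells, Ad-C included, were kept under normoxia in osteogenic DM, which held L-AA (50 μg/ml) and β-Gp (5 mM), infected on day 3 and harvested on day 6. The multiplicity of infection behind these libraries and the insert of the control virus were not given in the sources used here. The study's reporting summary counts n as separate experiments or mice, but the labels do not say which of these the libraries of a group were. P-values measure the spread between the libraries, which may then be partly technical.

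CC chemokines are small secreted proteins with a pair of adjacent cysteines near the start of the mature chain. They bind receptors of the Ccr family on leukocytes and draw those cells along a gradient held on heparan sulphate. In bone, stromal and osteoblast-lineage cells are a known source of monocyte-attracting members, and monocytes are the precursors of osteoclasts. HIF-1α and HIF-2α are transcription factors that bind DNA at hypoxia response elements whose core reads ACGTG or GCGTG, and inflammatory chemokine genes are classical targets of NF-kB.

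The depth was 14372589 to 17517897 counts in Ad-Hif2a libraries, 16239634 to 17696512 in Ad-Hif1a libraries and 17444224 to 18623403 in Ad-C libraries. Both delivered genes were higher with both vectors. Hif1a stood at 447 to 584 CPM (its count as a share of the library, after TMM scaling) with Ad-Hif2a, 1239 to 2322 CPM with Ad-Hif1a and 186 to 193 CPM with Ad-C. Epas1 stood at 822 to 2179 CPM with Ad-Hif2a, 407 to 678 CPM with Ad-Hif1a and 41.8 to 48.7 CPM with Ad-C. The osteoblast markers summed to 45123 to 52219 CPM with Ad-Hif2a, 50622 to 53953 CPM with Ad-Hif1a and 57809 to 63249 CPM with Ad-C. Most of this was collagen RNA, with Col1a1 averaging 31335, 34929 and 40497 CPM and Col1a2 10699, 12443 and 16355 CPM in that order. The macrophage markers summed to 1626 to 1914, 1605 to 1742 and 3645 to 3917 CPM in the same order, so the cultures also held RNA of macrophage genes. Ad-Hif1a replicate 1 and Ad-Hif2a replicate 3 had the lowest shares of mitochondrial counts in their groups, 2.95% and 2.82%. Replicates 2 and 3 of Ad-Hif1a were at 3.69% and 5.55%, and replicates 1 and 2 of Ad-Hif2a at 5.77% and 5.20%. The Ad-C libraries were at 5.92% to 6.37%. Within Ad-Hif1a, replicate 1 lay nearer to replicate 2 than replicate 3 did, so this share alone does not set replicate 1 apart. The main counts are also given without this pair of libraries, called below the pair that stood apart. Leaving it out keeps 2 libraries in each vector group.

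In the RefSeq annotation of GRCm38.p6, 9 of the 10 genes lie on chromosome 11 in 2 runs of neighbouring coding genes. One run holds Ccl2, Ccl7, Ccl11, Ccl12 and Ccl8 in that order, and the other holds Ccl5, Ccl9, Ccl6, Ccl3 and Ccl4. Ccl20 lies apart on chromosome 1. The authors' counts were made on GRCm39, so no gene coordinates are given for them. RefSeq promoter sequence was at hand for 5 of the 10 genes, and 3 are shown because they differ in what they hold and in how their transcripts responded. These are the 250 bases before the annotated start in GRCm38.p6, Ccl8 at chr11:82114935-82115184 on the plus strand, Ccl20 at chr1:83116516-83116765 on the plus strand and Ccl9 at chr11:83578637-83578886 on the minus strand. Capitals mark matches to the motifs searched on both strands, which were the hypoxia response cores ACGTG and GCGTG, the kappaB consensus, the AP-1 site TGANTCA and the TATA box TATAAA.
Ccl8: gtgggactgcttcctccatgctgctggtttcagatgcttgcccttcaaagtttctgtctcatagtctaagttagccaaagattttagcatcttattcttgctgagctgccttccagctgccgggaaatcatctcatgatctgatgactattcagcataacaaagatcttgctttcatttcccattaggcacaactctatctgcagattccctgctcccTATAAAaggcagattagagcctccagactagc
Ccl20: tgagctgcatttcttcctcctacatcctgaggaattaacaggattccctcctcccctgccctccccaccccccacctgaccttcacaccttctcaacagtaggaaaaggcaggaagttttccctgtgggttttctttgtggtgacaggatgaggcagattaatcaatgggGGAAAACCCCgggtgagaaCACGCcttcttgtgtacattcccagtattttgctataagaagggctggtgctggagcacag
Ccl9: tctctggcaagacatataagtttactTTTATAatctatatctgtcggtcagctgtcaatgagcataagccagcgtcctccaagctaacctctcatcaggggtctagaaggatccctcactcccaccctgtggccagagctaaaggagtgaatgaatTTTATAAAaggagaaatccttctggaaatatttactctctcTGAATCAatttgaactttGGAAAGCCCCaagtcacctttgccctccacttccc
The Ccl8 window held a TATA box starting 32 bases before the start and no other match. In the Ccl20 window a GCGTG core (printed as its complement CACGC) lay on the minus strand at 61 bases before the start, behind a kappaB match on the minus strand at 80 bases. Ccl9, whose transcript did not rise, held a minus-strand kappaB match at 35 bases, an AP-1 match at 53 bases and TATAAA matches at 92, 94 and 224 bases, those at 92 and 94 overlapping on opposite strands. Of the windows not printed, Ccl12 held a TATA box at 31 bases and Ccl3 held none of these motifs. Among all 32851 promoter windows of this length in the table, 38.6% held a hypoxia core in either form, 3.90% a kappaB match, 6.75% an AP-1 match and 12.4% TATAAA. A match describes the letters of the window and is neither a binding site nor a cause.

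Of the 10 CC chemokines, 9 rose and none fell in Ad-Hif2a against Ad-C, and 7 rose and none fell in Ad-Hif1a against Ad-C, at an adjusted p under 0.05 in edgeR's quasi-likelihood test. Among the 14413 genes tested, 7.87% rose and 7.72% fell with Ad-Hif2a, and 6.04% rose and 5.22% fell with Ad-Hif1a. The median log2 fold change of the chemokines was 3.61 with Ad-Hif2a and 3.19 with Ad-Hif1a, beside medians over all genes tested of 0.01 in each comparison. Together the 10 transcripts summed to 1242 to 1946 CPM in Ad-Hif2a libraries, 941 to 987 CPM in Ad-Hif1a libraries and 140 to 161 CPM in Ad-C libraries. The 3 Ad-C libraries serve both comparisons. The libraries did not overlap, with the vector group above Ad-C, for 9 of the 10 genes with each vector, beside 24.0% of all genes tested with Ad-Hif2a and 24.5% with Ad-Hif1a. The exception, Ccl9, lay wholly below Ad-C with Ad-Hif1a, as did 25.9% of all genes tested (25.5% with Ad-Hif2a, where Ccl9 overlapped). All 10 passed the filter on low counts, but Ccl11 and Ccl20 passed only through the vector groups and so had to differ. Of the other 8, 7 rose with Ad-Hif2a and 5 with Ad-Hif1a, and their median log2 fold change was 2.73 with Ad-Hif2a and 2.36 with Ad-Hif1a. In these bulk samples, fewer cells of a type and less RNA per cell cannot be told apart, nor can the cell type that made a transcript.

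**Figure D1:**
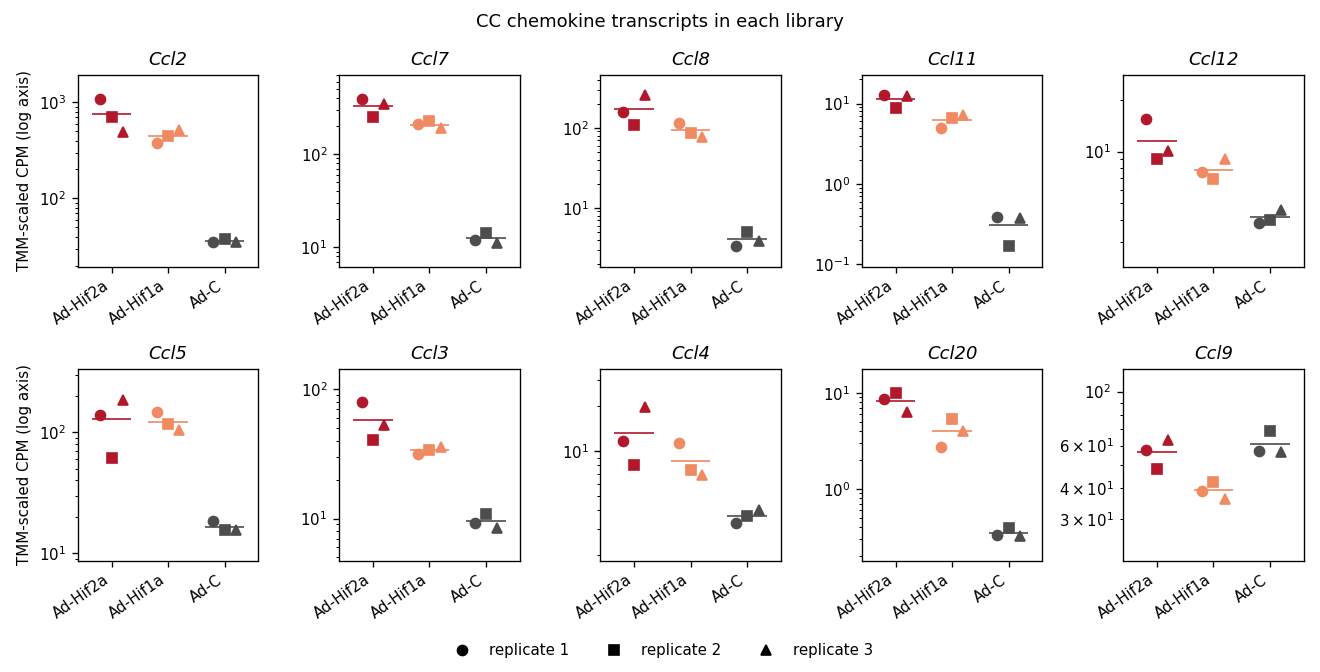
TMM-scaled CPM of each CC chemokine (log axes, a scale for each gene) in the 3 Ad-Hif2a, 3 Ad-Hif1a and 3 Ad-C libraries, with marker shape for the replicate and a line at the group mean. For 9 genes every vector library lies above every Ad-C library, and for Ccl9 the Ad-Hif2a and Ad-C libraries overlap.

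The monocyte attractants that signal through Ccr2 were led by Ccl2, the main chemokine drawing inflammatory monocytes out of the blood. Ccl2 stood at 1069, 695 and 485 CPM in Ad-Hif2a replicates 1, 2 and 3, at 373, 449 and 517 CPM in Ad-Hif1a replicates 1, 2 and 3, and at 35.2, 38.2 and 35.4 CPM in Ad-C replicates 1, 2 and 3. Every vector library lay far above every Ad-C library, while the vector groups overlapped, since Ad-Hif2a replicate 3 lay below Ad-Hif1a replicate 3. The log2 fold change was 4.34 ± 0.33 (SE; edgeR adjusted p = 0.000396) with Ad-Hif2a and 3.63 ± 0.32 (adjusted p = 0.000859) with Ad-Hif1a. In the GENCODE M21 annotation Ccl2 overlaps Gm17268 on the opposite strand, and whether the counting used strand was not given, so reads of that gene may be included.

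Ccl7, a second Ccr2 ligand and the next gene to Ccl2, also rose with both vectors. Its levels were 394, 252 and 343 CPM in the 3 Ad-Hif2a libraries, 209, 225 and 189.6 CPM in the 3 Ad-Hif1a libraries and 12.1, 14.3 and 11.2 CPM in the 3 Ad-C libraries, each in replicate order. The 3 groups did not overlap, and the levels fell in the order Ad-Hif2a, Ad-Hif1a, Ad-C. Its adjusted p of 0.000125 with Ad-Hif2a and 0.000215 with Ad-Hif1a (edgeR) were the lowest among the 10 genes in either comparison.

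Ccl8, at the far end of the same run of genes, is in mouse a ligand of Ccr8, a receptor of skin-homing and type 2 helper T cells. It was at 157, 109 and 255 CPM in the Ad-Hif2a libraries, at 115, 87.0 and 77.0 CPM in the Ad-Hif1a libraries and at 3.31, 5.04 and 3.85 CPM in the Ad-C libraries. No library of either vector came near the Ad-C range, and the vector groups overlapped. Ccl8 had the largest log2 fold change of the 10 in both comparisons, 5.37 ± 0.40 (SE; edgeR adjusted p = 0.000388) with Ad-Hif2a and 4.51 ± 0.39 (adjusted p = 0.000817) with Ad-Hif1a. The Ad-Hif2a value was 4.91 to 5.71 over all alternatives. By log2 fold change it ranked 65 of 14413 genes with Ad-Hif2a and 79 with Ad-Hif1a.

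Ccl12, a mouse Ccr2 ligand between Ccl11 and Ccl8 in the genome, had smaller fold changes than its neighbours. It was at 15.5, 9.08 and 10.1 CPM in the Ad-Hif2a libraries, 7.58, 6.92 and 9.001 CPM in the Ad-Hif1a libraries and 3.86, 3.98 and 4.59 CPM in the Ad-C libraries. The 3 groups did not overlap, though the lowest Ad-Hif2a library and the highest Ad-Hif1a library nearly met. The log2 fold change was 1.46 ± 0.24 (SE; edgeR adjusted p = 0.00766) with Ad-Hif2a, and with Ad-Hif1a it was 0.91 ± 0.24 and missed the threshold (adjusted p = 0.0511). The Ad-Hif2a call was lost without Ad-C replicate 1 (adjusted p = 0.0702) or Ad-C replicate 3 (0.0511). With Ad-Hif1a, Ccl12 passed when Ad-Hif2a replicate 3 (0.00476), Ad-Hif2a replicate 1 (0.0339) or the pair of libraries that stood apart (0.00263) was left out, and in 7 of 18 alternatives in all. Those 7 include the fit without the replicate number as a term.

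Ccl11, or eotaxin, attracts eosinophils through Ccr3 and sits between Ccl7 and Ccl12. It was all but silent with Ad-C, where the 3 libraries held 7, 3 and 7 counts (0.386, 0.168 and 0.374 CPM). It was at 12.7, 8.85 and 12.5 CPM in the Ad-Hif2a libraries and at 4.92, 6.57 and 7.26 CPM in the Ad-Hif1a libraries. All 3 groups were apart, with Ad-Hif2a the highest. Pooled over libraries, 542 counts with Ad-Hif2a against 17 with Ad-C gave a ratio of 36.2 (95% counting interval 22.4 to 62.5), and 317 with Ad-Hif1a against the same 17 gave 20.0046 (12.3 to 34.8), intervals that cover counting error only. In edgeR the adjusted p was 0.000233 with Ad-Hif2a and 0.000502 with Ad-Hif1a. These values carry little weight, since Ccl11 passed the filter only through the vector groups and so had to differ.

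Ccl5, Ccl3 and Ccl4 draw monocytes and activated T cells. Ccl5, a late-phase chemokine of T cells and virus-infected cells, was at 139, 62.0 and 187 CPM in the Ad-Hif2a libraries, at 147, 117 and 104 CPM in the Ad-Hif1a libraries and at 18.4, 15.6 and 15.6 CPM in the Ad-C libraries. Every vector library lay above the Ad-C range, and the Ad-Hif1a libraries lay inside the range of the Ad-Hif2a libraries. The log2 fold change was 2.89 ± 0.35 (SE; edgeR adjusted p = 0.00236) with Ad-Hif2a and 2.89 ± 0.34 (adjusted p = 0.00287) with Ad-Hif1a. In RefSeq GRCm38.p6 the lncRNA Gm32650 overlaps Ccl5, so its reads may be included.

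Ccl3, which also signals through Ccr1 and promotes osteoclast formation, was at 80.0, 40.4 and 52.5 CPM in the Ad-Hif2a libraries. It was at 31.6, 33.8 and 35.8 CPM in the Ad-Hif1a libraries and at 9.27, 10.9 and 8.49 CPM in the Ad-C libraries. None of the 3 groups overlapped. The log2 fold change was 2.56 ± 0.27 (SE; edgeR adjusted p = 0.00136) with Ad-Hif2a and 1.82 ± 0.26 (adjusted p = 0.0058) with Ad-Hif1a, and the Ad-Hif1a call was lost without Ad-C replicate 1 (adjusted p = 0.0542) or Ad-C replicate 3 (0.0562).

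Ccl4, the neighbour of Ccl3 whose model overlaps it in RefSeq GRCm38.p6 so that reads may be shared between the pair, was at 11.7, 8.11 and 19.8 CPM in the Ad-Hif2a libraries. It was at 11.3, 7.496 and 6.95 CPM in the Ad-Hif1a libraries and at 3.31, 3.64 and 4.01 CPM in the Ad-C libraries. All vector libraries exceeded all Ad-C libraries, and the vector groups overlapped. The log2 fold change was 1.79 ± 0.34 (SE; edgeR adjusted p = 0.0133) with Ad-Hif2a, and with Ad-Hif1a it was 1.23 ± 0.33 and missed the threshold (adjusted p = 0.0589). The Ad-Hif2a call was lost without Ad-C replicate 1 (0.0937) or Ad-C replicate 3 (0.0942). With Ad-Hif1a, Ccl4 passed when Ad-Hif1a replicate 3 (0.0178), Ad-Hif2a replicate 3 (0.00138) or the pair that stood apart (0.00258) was left out, and in 7 of 18 alternatives in all. The fit without the replicate number as a term was among those 7.

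Ccl20, the ligand of Ccr6 that recruits Th17 cells and immature dendritic cells, held 6, 7 and 6 counts in the Ad-C libraries (0.331, 0.392 and 0.321 CPM). It was at 8.72, 9.94 and 6.33 CPM in the Ad-Hif2a libraries and at 2.72, 5.35 and 3.97 CPM in the Ad-Hif1a libraries. The 3 groups were apart, as for Ccl11. The pooled counts were 409 with Ad-Hif2a against 19 with Ad-C, a ratio of 24.4 (95% counting interval 15.4 to 41.0), and 204 with Ad-Hif1a against the same 19, a ratio of 11.5 (7.19 to 19.5). The edgeR adjusted p was 0.00025 with Ad-Hif2a and 0.000911 with Ad-Hif1a. Like Ccl11, Ccl20 passed the filter only through the vector groups and so had to differ from Ad-C.

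Ccl9, a Ccr1 ligand that attracts osteoclast precursors in mouse bone, was the exception among the 10. It was at 57.6, 48.1 and 63.1 CPM in the Ad-Hif2a libraries, at 39.1, 42.7 and 36.3 CPM in the Ad-Hif1a libraries and at 57.2, 68.9 and 56.7 CPM in the Ad-C libraries. The Ad-Hif2a and Ad-C libraries overlapped, and the Ad-Hif1a libraries lay below both. The log2 fold change was -0.11 ± 0.17 (SE; edgeR adjusted p = 0.659) with Ad-Hif2a, with a 95% interval of -0.52 to 0.29, and -0.63 ± 0.17 (adjusted p = 0.0615) with Ad-Hif1a. The Ad-Hif1a value passed as a fall when Ad-Hif2a replicate 2 (0.0455), Ad-Hif2a replicate 3 (0.00321) or the pair that stood apart (0.00582) was left out, and in 6 of 18 alternatives in all. Among those 6 was the fit without the replicate number as a term. Ccl9 lies between Ccl5 and Ccl6, which both rose.

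**Figure D2:**
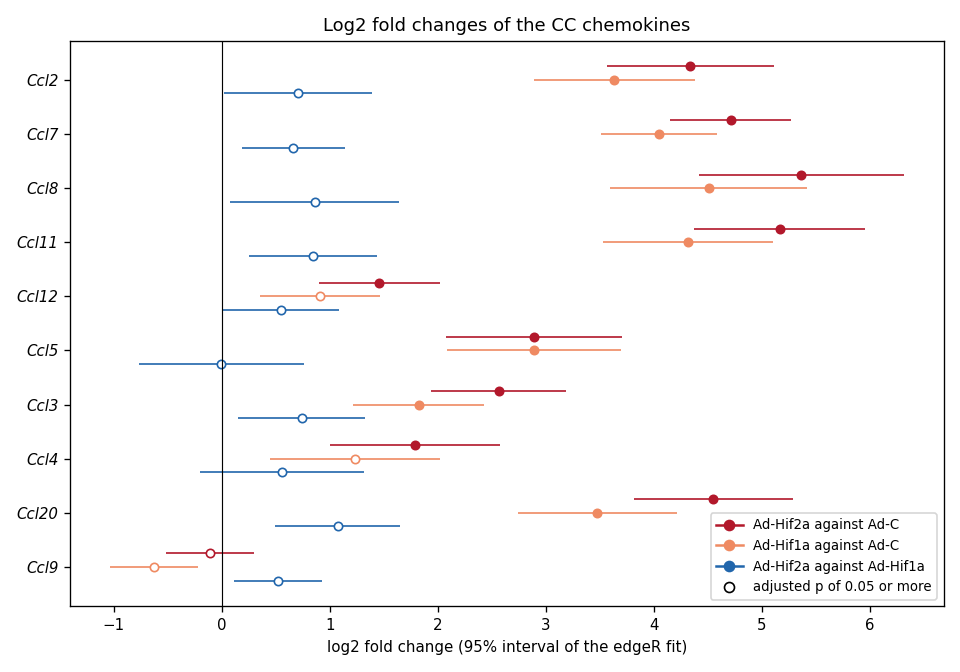
Log2 fold change of each CC chemokine (x axis) with its 95% interval in Ad-Hif2a against Ad-C, Ad-Hif1a against Ad-C and Ad-Hif2a against Ad-Hif1a, with open points for an adjusted p of 0.05 or more. The values against Ad-C reach 5.37 and 4.51 at Ccl8 and stand at -0.11 and -0.63 at Ccl9, and every point between the vectors is open.

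Set directly against Ad-Hif1a, none of the 10 chemokines passed the test in Ad-Hif2a (edgeR adjusted p = 1.000 for each after rounding). This holds for all genes tested, of which 0% were called in either direction by edgeR. DESeq2 called 19 genes, none of the 10 among them. An unadjusted edgeR p under 0.05 was seen for 338 of 14413, fewer than expected if no gene differed. The edgeR p-values between the vectors can thus not be taken at face value. The delivered genes did not pass either, though their ranges did not overlap. Hif1a had a log2 difference of -1.75 (edgeR adjusted p = 0.823) and Epas1 one of 1.64 (0.99984). A missing call therefore does not show equal levels. Among the chemokines the direction was nevertheless shared, with 9 of 10 log2 fold changes above 0. The median over the 10 was 0.68, beside 0.00 over all genes tested. The unadjusted p was under 0.05 with a higher Ad-Hif2a level for 8 of the 10, while 1.30% of all genes tested had that. Ranges did not overlap, with Ad-Hif2a above Ad-Hif1a, for Ccl7, Ccl11, Ccl12, Ccl3, Ccl20 and Ccl9, 6 of the 10, beside 3.07% of all genes tested. None of the 10 lay wholly below Ad-Hif1a or had an unadjusted p under 0.05 with a lower level, as 3.21% and 1.05% of all genes tested had. The 10 genes come from the same 6 libraries and are not independent of each other.

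The size of the difference between the vectors was set most apart from 0 for Ccl20, whose log2 difference of 1.07 had a 95% interval of 0.49 to 1.66. For Ccl11 the difference was 0.85 (0.25 to 1.44), for Ccl7 0.66 (0.19 to 1.14), for Ccl3 0.74 (0.15 to 1.33) and for Ccl9 0.52 (0.11 to 0.93). For Ccl8 it was 0.86 (0.07 to 1.65), for Ccl2 0.71 (0.02 to 1.39) and for Ccl12 0.55 (0.01 to 1.09). Ccl4, at 0.56, had an interval of -0.20 to 1.32. Ccl5 was at -0.00 with an interval of -0.77 to 0.76, which does not show equal levels, and it lay between -0.57 and 0.38 over 18 alternatives.

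Without the pair of libraries that stood apart, none of the 10 passed between the vectors either (edgeR adjusted p = 0.371 for Ccl2 and 1 for the others). The unadjusted p was then under 0.05 with a higher Ad-Hif2a level for Ccl2, Ccl8, Ccl12 and Ccl20, 4 of the 10 where 8 had it with all libraries, beside 1.70% of all 14559 genes tested in that fit. For Ccl5 the unadjusted p was under 0.05 with a lower Ad-Hif2a level, as for 1.31% of all genes. Its log2 difference was then -0.57, with a 95% interval of -1.06 to -0.08. The log2 difference stayed above 0 for the other 9, at 0.92 (0.27 to 1.57) for Ccl20 and 0.77 (0.37 to 1.16) for Ccl2. The median over the 10 was 0.49, beside -0.00 over all genes. With 2 libraries against 2, ranges did not overlap, Ad-Hif2a above Ad-Hif1a, for 9 of the 10, beside 14.8% of all genes.

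The libraries of each vector group did not rank the chemokines alike. Ad-Hif2a replicate 3 was the highest of its group for Ccl5, Ccl8, Ccl4 and Ccl9 and the lowest for Ccl2 and Ccl20. Ad-Hif1a replicate 1 was likewise the highest of its group for Ccl5, Ccl8 and Ccl4, and the lowest for Ccl2, Ccl20, Ccl11 and Ccl3. These are the libraries with the lowest mitochondrial shares, and each also had the lowest level of its delivered gene, with Epas1 at 822 CPM in Ad-Hif2a replicate 3 against 1994 and 2179 CPM in the others of its group, and Hif1a at 1239 CPM in Ad-Hif1a replicate 1 against 1928 and 2322 CPM. This pattern was singled out after the values were seen, and the part of these features in it was not tested. With both libraries left out, 9 of the 10 rose with Ad-Hif2a, and with Ad-Hif1a 9 rose and Ccl9 fell. In that fit far more genes passed in general, since 14.4% of all genes rose and 14.3% fell with Ad-Hif2a, and 14.2% rose and 13.4% fell with Ad-Hif1a.

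Corrected for transcript length (CPM per kb of the longest protein-coding GENCODE M21 transcript), Ccl2 was the most abundant of the 10 in all 3 groups. Its level was 922 ± 364 CPM per kb with Ad-Hif2a, 549 ± 88.2 with Ad-Hif1a and 44.6 ± 2.02 with Ad-C (SD, n = 3 each). Ccl7 came next with Ad-Hif2a, at 412 ± 90.1 CPM per kb, and with Ad-Hif1a, at 259.5 ± 22.2, and was the fourth with Ad-C at 15.7 ± 2.03. Ccl9 was the eighth at 18.7 ± 2.52 CPM per kb with Ad-Hif2a, the seventh at 13.1 ± 1.06 with Ad-Hif1a and the third at 20.3 ± 2.30 with Ad-C. Ccl11 and Ccl20 were the lowest in each group.

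Not every neighbour in these orders was separated by its libraries. With Ad-Hif2a the ranges of Ccl7 and Ccl8, of Ccl8 and Ccl5, of Ccl12 and Ccl4, and of Ccl4 and Ccl9 overlapped. With Ad-Hif1a those of Ccl7 and Ccl5, Ccl5 and Ccl8, Ccl12 and Ccl9, and Ccl9 and Ccl4 overlapped. With Ad-C those of Ccl7 and Ccl3, Ccl8 and Ccl12, and Ccl11 and Ccl20 overlapped.

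**Figure D3:**
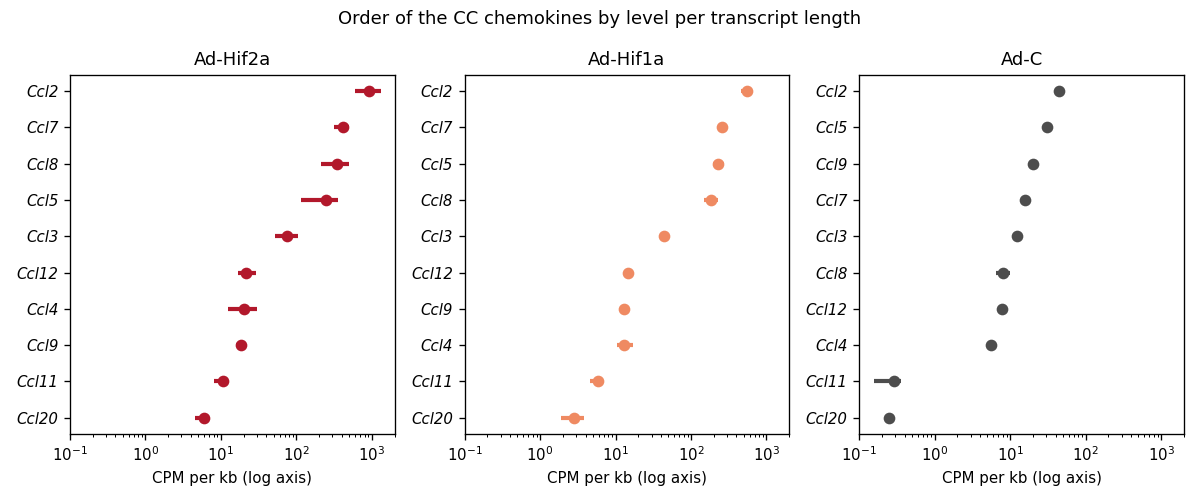
Level of each CC chemokine in CPM per kb of transcript (log axis) with Ad-Hif2a, Ad-Hif1a and Ad-C, ordered within each group, with points at the mean and bars over the range of 3 libraries. Ccl2 leads in each group at 922, 549 and 44.6 CPM per kb, and Ccl9 drops below Ccl7, Ccl8 and Ccl3 in both vector groups.

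Among 14 other CC chemokine genes, 5 could be tested, and only Ccl6 rose with either vector. Ccl6, a macrophage and myeloid chemokine next to Ccl9, was at 129.99, 72.0 and 96.3 CPM in the Ad-Hif2a libraries, at 79.0, 82.6 and 73.4 CPM in the Ad-Hif1a libraries and at 15.1 to 16.9 CPM with Ad-C. Its log2 fold change was 2.64 ± 0.23 (SE; edgeR adjusted p = 0.000578) with Ad-Hif2a and 2.31 ± 0.22 (adjusted p = 0.00116) with Ad-Hif1a. The remaining 4, Ccl25, Ccl27a, Ccl27b and Ccl28, did not pass. Without the pair of libraries that stood apart, 1 of these 5 rose and 1 fell with Ad-Hif1a, beside the 14.2% and 13.4% of all genes. Ccl1, the next gene after Ccl8, had no count in any library.

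Of 15 CC receptor and decoy genes 5 could be tested, and 3 of these 5 fell and none rose with each vector, Ccr2 and Ackr4 among them. Of all genes tested, 7.72% fell with Ad-Hif2a and 5.22% with Ad-Hif1a. Without the pair that stood apart the counts were also 3 fallen and none risen with each vector. Ccr2, the receptor for Ccl2, Ccl7 and Ccl12, had 2 counts over the 3 Ad-Hif2a libraries and 3 over the 3 Ad-Hif1a libraries, against 143 over the 3 Ad-C libraries. The ratio was 0.0159 with Ad-Hif2a (95% counting interval 0.0019 to 0.0584) and 0.0225 with Ad-Hif1a (0.00459 to 0.0671). Ccr2 passed the filter only through Ad-C, where it stood at 2.10 to 2.94 CPM, and so had to differ.

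Ackr4, a scavenging receptor for homeostatic chemokines, was at 13.0 to 16.0 CPM with Ad-Hif2a, 15.9 to 17.4 CPM with Ad-Hif1a and 30.8 to 33.4 CPM with Ad-C. Its log2 fold change was -1.13 ± 0.15 (SE; edgeR adjusted p = 0.00328) with Ad-Hif2a and -0.95 ± 0.15 (adjusted p = 0.0078) with Ad-Hif1a. Ccr1, the receptor for Ccl3 and Ccl9, did not pass, with pooled counts of 35 with Ad-Hif2a, 31 with Ad-Hif1a and 19 with Ad-C. Ccr6, the receptor for Ccl20, and Ccr8, that for Ccl8, had no count in any library.

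Many macrophage markers fell as well. Of 19 such markers, all tested, 10 fell and none rose with Ad-Hif2a, and 11 fell and none rose with Ad-Hif1a, beside the 7.72% and 5.22% of all genes that fell. Csf1r, the receptor for the macrophage growth factor, was at 36.9 to 53.2 CPM with Ad-Hif2a, 42.0 to 49.4 CPM with Ad-Hif1a and 147 to 156 CPM with Ad-C. Cd68, a lysosomal macrophage protein, was at 44.9 to 46.9, 39.5 to 44.6 and 141 to 153 CPM in the same order. Mrc1, the mannose receptor, was at 5.31 to 16.1 CPM with Ad-Hif2a, 11.7 to 18.4 CPM with Ad-Hif1a and 197 to 214 CPM with Ad-C, and Lyz2 also fell.

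Not all macrophage markers moved. Adgre1, which encodes the macrophage surface protein F4/80, had log2 fold changes of -0.02 ± 0.22 (SE; edgeR adjusted p = 0.945) with Ad-Hif2a and -0.21 ± 0.22 (adjusted p = 0.571) with Ad-Hif1a. Aif1 (0.77 with Ad-Hif2a and 0.29 with Ad-Hif1a) and Cd163 (0.25 and 0.33) had log2 fold changes above 0 and did not pass. None of the 19 markers was at 0 in all libraries of a group. Lyz2 made up most of the summed level, averaging 1171 CPM with Ad-Hif2a, 1130 with Ad-Hif1a and 2429 with Ad-C. Without the pair of libraries that stood apart, 14 of the 19 fell with each vector, where 14.3% of all genes fell with Ad-Hif2a and 13.4% with Ad-Hif1a. The chemokines rose while the summed macrophage markers were lower in every vector library than in every Ad-C library, and the part of the macrophage RNA in the chemokine levels was not tested.

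**Figure D4:**
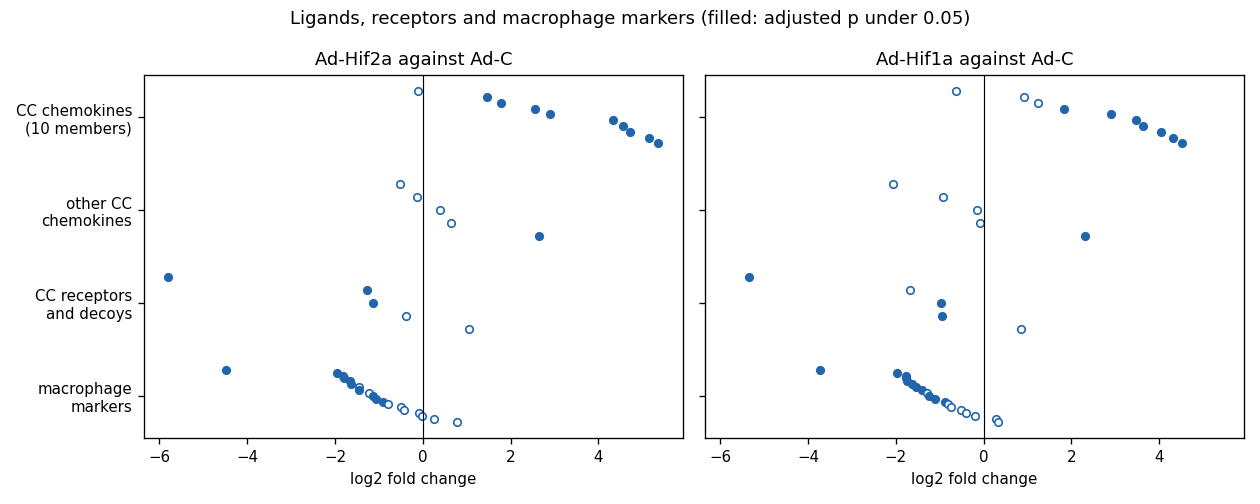
Log2 fold change (x axis) of each tested gene among the 10 CC chemokines, 5 other CC chemokines, 5 CC receptors and decoys and 19 macrophage markers, in Ad-Hif2a against Ad-C (left) and Ad-Hif1a against Ad-C (right), with filled points for an adjusted p under 0.05. Filled chemokine points lie above 0 and filled receptor and macrophage points lie below it, with medians of 3.61 and 3.19 for the 10 chemokines and -1.13 and -1.24 for the macrophage markers.

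RNA of other leukocytes was scarce. The T and NK cell markers summed to 0.800 to 1.60 CPM with Ad-Hif2a, 1.16 to 1.55 CPM with Ad-Hif1a and 4.97 to 6.78 CPM with Ad-C, and of 12 such genes only Cd4 and Cd28 could be tested. Both were lower with each vector, but they passed the filter only through Ad-C and so had to differ. The mast cell markers summed to at most 0.310 CPM in any library. Endothelial markers summed to 2.84 to 3.83, 2.67 to 2.77 and 5.43 to 5.66 CPM, and skeletal muscle markers to 6.48 to 10.1, 11.4 to 14.1 and 57.3 to 69.6 CPM, with Ad-Hif2a, Ad-Hif1a and Ad-C in that order.

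Single genes made up most of these last sums in Ad-C, and the markers did not move together. Kdr, a receptor for vascular endothelial growth factor, averaged 0.841 CPM with Ad-Hif2a, 1.30 with Ad-Hif1a and 4.23 with Ad-C, and its fall passed with Ad-Hif2a (edgeR adjusted p = 0.0286) and not with Ad-Hif1a (0.0908). Pecam1, an endothelial adhesion protein, held 49, 27 and 5 counts in the same order and was higher with Ad-Hif2a (adjusted p = 0.0162), but it passed the filter only through the Ad-Hif2a libraries and so had to differ. Myh1, a myosin heavy chain of fast muscle, averaged 1.47 CPM with Ad-Hif2a, 2.39 with Ad-Hif1a and 57.7 with Ad-C. Acta1, the skeletal muscle actin, went the other way, with 4.01, 6.70 and 0.715 CPM and log2 fold changes of 2.47 ± 0.34 with Ad-Hif2a and 3.22 ± 0.34 with Ad-Hif1a (SE; adjusted p = 0.00396 and 0.00176). Of 4 muscle markers tested, 1 rose and 2 fell with each vector. The shares of all genes were 7.87% risen and 7.72% fallen with Ad-Hif2a, and 6.04% and 5.22% with Ad-Hif1a.

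The osteoblast list had 5 of 10 genes fallen with Ad-Hif2a and 3 of 10 with Ad-Hif1a, none risen, beside the 7.72% and 5.22% of all genes. Without the pair that stood apart 6 fell and 1 rose with each vector, beside 14.3% and 14.4% of all genes with Ad-Hif2a and 13.4% and 14.2% with Ad-Hif1a. Among those fallen was Sp7, the osteoblast transcription factor osterix, with log2 fold changes of -1.13 ± 0.20 with Ad-Hif2a and -1.25 ± 0.20 with Ad-Hif1a (SE). Spp1 and Ibsp went the other way with all libraries, every vector library lying above every Ad-C library, but did not pass. Their log2 fold changes were 0.61 ± 0.23 and 0.73 ± 0.27 with Ad-Hif2a, and 0.37 ± 0.23 and 0.52 ± 0.27 with Ad-Hif1a (SE). Col1a1 and Col1a2, which made up most of the summed level, did not pass with either vector.

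Of the 11 NF-kB subunits and feedback inhibitors, 5 rose and 1 fell with Ad-Hif2a, and 5 rose and none fell with Ad-Hif1a. Of all genes, 7.87% rose and 7.72% fell with Ad-Hif2a, and 6.04% rose and 5.22% fell with Ad-Hif1a. Nfkbiz, a nuclear co-activator of secondary inflammatory genes, was at 134, 97.2 and 76.0 CPM in the Ad-Hif2a libraries, at 67.1, 80.7 and 96.5 CPM in the Ad-Hif1a libraries and at 7.06 to 8.17 CPM with Ad-C. Like Ccl2, it was lowest in its group in Ad-Hif2a replicate 3 and in Ad-Hif1a replicate 1. Bcl3, a nuclear partner of the NF-kB p50 and p52 subunits, was at 39.3 to 41.8 CPM with Ad-Hif2a, 34.6 to 40.6 CPM with Ad-Hif1a and 6.55 to 6.95 CPM with Ad-C. Nfkbia, the inhibitor that holds NF-kB in the cytoplasm, was at 148, 119 and 348 CPM in the Ad-Hif2a libraries, at 168, 116 and 88.9 CPM in the Ad-Hif1a libraries and at 30.7 to 33.2 CPM with Ad-C, with the highest values of each vector group in the same libraries as Ccl8 and Ccl4. Relb rose with both vectors, whereas Rela, the main activating subunit, had log2 fold changes of -0.07 ± 0.15 and 0.07 ± 0.15 (SE) with Ad-Hif2a and Ad-Hif1a and did not pass. The gene that fell with Ad-Hif2a was Rel, at -0.75 ± 0.19 (SE, log2; edgeR adjusted p = 0.0363). With Ad-Hif1a Rel was at -0.59 ± 0.19 and did not pass (adjusted p = 0.0922). Every vector library lay below every Ad-C library for Rel. Without the pair of libraries that stood apart, 9 of the 11 rose and 1 fell with Ad-Hif2a, and 8 rose and 1 fell with Ad-Hif1a, in a fit where 14.4% of all genes rose with Ad-Hif2a and 14.2% with Ad-Hif1a.

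Genes that hold or trim chemokines outside the cell moved in both directions. Of 8 listed 7 were tested. Among these, 4 rose and 1 fell in Ad-Hif2a, and 2 rose and 1 fell with Ad-Hif1a, beside 7.87% risen and 7.72% fallen of all genes with Ad-Hif2a and 6.04% and 5.22% with Ad-Hif1a. Without the pair that stood apart, 4 rose and 1 fell with each vector, beside 14.4% and 14.3% of all genes with Ad-Hif2a and 14.2% and 13.4% with Ad-Hif1a. Mmp2, a protease that trims Ccl7, was at 1925 to 2309 CPM with Ad-Hif2a, 2061 to 2111 CPM with Ad-Hif1a and 1111 to 1167 CPM with Ad-C. The syndecan Sdc1, which carries heparan sulphate, was at 177 to 209 CPM, 158 to 189.9 CPM and 110 to 116 CPM in the same order, and Sdc2 was at 161 to 209 CPM, 192 to 232 CPM and 401 to 407 CPM. Tnfaip6, a secreted chemokine-binding protein, changed by 1.67 ± 0.40 (SE, log2; edgeR adjusted p = 0.031) with Ad-Hif2a, and by 1.04 ± 0.40 with Ad-Hif1a, which did not pass (adjusted p = 0.15).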

How the data were processed

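The files hold raw whole-number counts per gene symbol, which the authors deposited without normalization. Their processing notes name bcl2fastq 2.20.0.422, fastp, STAR, Salmon and GRCm39, without roles or settings. The CORALL kit was used to make the libraries, from total RNA. The fits used edgeR 4.0.16 (with statmod 1.5.0 and limma 3.58.1, under R 4.3.3), and DESeq2 1.42.0 as an alternative. Genes passing filterByExpr (14413) were TMM-scaled (factors 0.956 to 1.03) and fitted on all 9 libraries by the robust quasi-likelihood model with group and replicate number as terms, because the study's methods name a paired test. Every gene's p-value is from that fit, adjusted by Benjamini-Hochberg over 14413 genes, with a threshold of 0.05. Medians, sums and counts describe lists without a test. Alternatives covered the block, scaling, filter, tool, threshold and libraries used. Fits were tested on simulated data.

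All 10 chemokines are named, with up to 4 tested genes of lowest adjusted p from each other list, genes set beside them for their role, and the 3 genes most like each chemokine. The chemokines, the gene lists, and the alternative without the pair of libraries that stood apart (Ad-Hif2a replicate 3, Ad-Hif1a replicate 1) were chosen with earlier results of these data known. Applying that alternative, and the fit without the block, to the other lists, and that alternative to the chemokines between the vectors, was chosen after seeing the data. Protein sequences were not used here. Values of 1 receptor gene are not reported here.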

Additional observations from a re-analysis of the deposited data

How the results depend on the processing

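The p-values rest on 3 libraries a group. With the 9 libraries left out in turn, the number of the 10 chemokines called was 7 to 9 with Ad-Hif2a and 6 to 10 with Ad-Hif1a, each against Ad-C, and 0 between the vectors. Over 178 alternative values a comparison, 173 and 156 kept direction and side of the threshold against Ad-C with Ad-Hif2a and Ad-Hif1a, and 170 did so between the vectors. The signs that turned were those of values near 0, namely Ccl9 in Ad-Hif2a against Ad-C (0.0612 without Ad-Hif2a replicate 2, and -0.256 to 0.0612 without 1 library) and Ccl5 in Ad-Hif2a against Ad-Hif1a. Ccl5 was at 0.0752 with no replicate block, 0.00683 by DESeq2, 0.00628 with RLE factors, 0.0028 where each library had to reach 10 counts, -0.569 without the pair of libraries that stood apart, and -0.44 to 0.384 without 1 library, being above 0 without Ad-Hif1a replicate 1 (0.037) or 2 (0.198) or Ad-Hif2a replicate 1 (0.00598) or 2 (0.384). The cause was not tested.

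No shared deviation was seen between libraries of the same replicate number. The check cannot show whether they shared a culture, since deviations were taken from means of 3 libraries, which single libraries can sway. Ad-Hif2a replicate 3 and Ad-Hif1a replicate 1, the pair that stood apart, correlated at 0.610. Deviations of same-numbered libraries correlated at -0.101 to 0.0247 in Ad-Hif2a against Ad-C, at -0.0152 to 0.0758 in Ad-Hif1a against Ad-C and at -0.575 to 0.098 between the vectors, and 0 of 3 pairs exceeded 0.1 in each. Without the replicate block, 9 chemokines rose with Ad-Hif2a, and with Ad-Hif1a 9 rose and Ccl9 fell, 10 in all, and 0 passed between the vectors. More genes passed in general in that fit. Of all genes, 12.4% rose and 11.5% fell with Ad-Hif2a, and 8.53% rose and 7.98% fell with Ad-Hif1a. The calls gained with Ad-Hif1a were Ccl12 (edgeR adjusted p = 0.0246), Ccl4 (0.0315) and Ccl9 (0.0171). Osteoblast markers called in either direction went to 8 of 10 with Ad-Hif2a and 6 of 10 with Ad-Hif1a without the block, beside those same shares. With the block 5 and 3 were called, all of them fallen.

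The number of all genes called moved more than that of the chemokines. In Ad-Hif2a against Ad-C it was 2247, against 3452 without the replicate block, 3526 by DESeq2, 1050 by glmTreat against a fold of 1.5, 4173 without the pair that stood apart (Ad-Hif2a replicate 3, Ad-Hif1a replicate 1), and 688 (without Ad-C replicate 1) to 3309 (without Ad-Hif2a replicate 3) without 1 library. In Ad-Hif1a against Ad-C it was 1624, against 2379 without the replicate block, 2470 by DESeq2, 4706 with the 6 libraries compared alone, 748 by glmTreat, 4022 without that pair of libraries, and 441 (without Ad-C replicate 1) to 5330 (without Ad-Hif2a replicate 3) without 1 library. Between the vectors it was 0, against 2 without the replicate block, 19 by DESeq2, 2 with no filter on low counts, 11 without that pair of libraries, and 0 to 12 (without Ad-Hif2a replicate 3) without 1 library.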

Other observations

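Each chemokine was set beside the genes whose pattern was closest over the 9 libraries, by the root mean square difference between centred log2 CPM, which is a description without a test. Ccl2 was closest to Acod1, the enzyme that makes itaconate in activated macrophages (0.182), and then to Saa4 (0.253) and Zc3h12a, an RNase that degrades inflammatory transcripts (0.258). Ccl7 was closest to the complement gene Cfb (0.256), then Tfr2 and Saa4. Ccl8 was closest to Chil1 (0.256), then Vnn3 and Mmp8. Ccl3 was closest to Cd40 (0.210), then Zbp1 and its neighbour gene Ccl6 (0.236). Ccl20 was closest to Il23r (0.331), then Ccl2 (0.346) and Spsb1.

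Ccl11 had Ccl7 as its closest gene (0.354), followed by Saa4 and Acod1. Ccl5 was closest to H4c8 (0.246), H2-Q9 and C6, and Ccl4 to Ifitm2 (0.138), Rnf149 and Cd52. The extracellular matrix genes Dpt (0.159) and Bgn (0.192) were among the 3 closest to Ccl12, with Tbx3 between them. Ccl9 was closest to Ccdc85c (0.119), Rpl34 and Ubl3.

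Of 10 neutrophil markers 3 were tested, and S100a8 and Camp rose with both vectors. Of all genes, 7.87% rose with Ad-Hif2a and 6.04% with Ad-Hif1a. Csf3r, the remaining marker tested, went the other way and did not pass. Its log2 fold change was -0.72 ± 0.28 with Ad-Hif2a and -0.40 ± 0.28 with Ad-Hif1a (SE), with every vector library below every Ad-C library. Without the pair of libraries that stood apart 2 of the 3 also rose with each vector. In that fit 14.4% of all genes rose with Ad-Hif2a and 14.2% with Ad-Hif1a. Camp, which encodes a cathelicidin peptide, was at 9.72, 5.94 and 9.17 CPM in the Ad-Hif2a libraries and at 6.06, 4.94 and 4.03 CPM in the Ad-Hif1a libraries, with 4 counts over the 3 Ad-C libraries. S100a8 had 108 counts with Ad-Hif2a and 56 with Ad-Hif1a, against 1 with Ad-C, ratios of 123 (95% counting interval 21.5 to 4883) and 60.1 (10.4 to 2415). Both passed the filter only through the vector groups and so had to differ. S100a9, the usual partner of S100a8 in neutrophils, and Ngp had no count in any library.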
